A study of Mus musculus with 9 samples.

Results

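Hippocampal mRNA of mice that received shRNA A, a short hairpin RNA directed against Camta1, was compared with that of mice that received a non-targeting control hairpin. The comparison uses 6 of the 9 libraries of the series, 3 per group, and covers all genes of the deposited count table, of which 16438 had enough reads to be tested. Both groups were male C57BL/6NCrl mice, an inbred strain. At an age of 8 weeks a recombinant adeno-associated virus carrying the hairpin was placed into the dorsal hippocampus by stereotaxic injection, and tissue was collected 3 weeks later. Animals of both groups therefore carry virus, hairpin and the red fluorescent protein mCherry, by which the infected area was dissected. The series' design gives 3 animals per group, and each library is named here by its group and the number in its label. The remaining 3 libraries, from mice with a different hairpin against Camta1 (shRNA B), entered the estimate of the spread and the test of where the hairpins differ. The dissected pieces hold infected and uninfected cells of many types, and no source used here names the promoter of the hairpin.

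Camta1 encodes a calmodulin-binding transcription activator, a protein with a CG-1 DNA-binding domain, ankyrin repeats and IQ motifs that bind calmodulin. It is abundant in neurons, and human variants of the gene are linked to ataxia and intellectual disability. The CG-1 domain of the plant members of the family binds DNA with a CGCG core. A hairpin RNA is processed by the cell's microRNA machinery, and its guide strand lowers mRNAs that match it. The question the comparison addresses is which transcripts of the adult hippocampus differ when Camta1 is lowered with this hairpin.

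Camta1 mRNA (ENSMUSG00000014592, chromosome 4) stood in the shRNA A libraries at 39.4% to 57.6% of the control mean. It measured at 426.7, 455 and 441.5 CPM (counts scaled to a common library size with TMM factors) in control replicates 1, 2 and 3. With shRNA A it measured 230.5, 173.8 and 254.1 CPM, so every library with the hairpin lay below every control and replicate 2 was the lowest. These levels are 52.3%, 39.4% and 57.6% of the control mean, or 49.8% ± 9.4 (SD, n = 3). The exact two-sided permutation test over the 3 and 3 libraries gave p = 0.1, the smallest it can give in this design. In edgeR's quasi-likelihood test across all genes the log2 fold change was -1.01 ± 0.22 (SE) with an unadjusted p of 0.00135 and an adjusted p of 0.388, which does not pass the adjusted threshold of 0.05. DESeq2 gave the same log2 fold change with an adjusted p of 0.0152, and edgeR fitted to these 6 libraries alone gave 0.0128. Leaving out shRNA B replicate 2, a library outside the comparison that shares the estimate of the spread, gave 0.015. In bulk tissue, fewer cells of a type and less RNA per cell cannot be told apart. The authors' deposited table lists a log2 fold change of -1.006 for shRNA A, with an adjusted p of 0.000358 for a test over all 3 groups. The paralog Camta2 stood between 687.6 and 964.2 CPM in the controls and between 812.3 and 911.5 CPM with shRNA A, with a log2 fold change of 0.05. Its sign turned to -0.08 without control replicate 1.

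The 6 libraries held 29123744 to 32406247 counts, and 3 reads stood for 0.0945 to 0.102 CPM. Markers of hippocampal neurons were well covered, with 13 CA1, 19 CA2 and CA3 and 19 dentate granule cell genes of the lists tested. The listed genes Pou3f1 (CA1) and Pcp4 (CA2 and CA3) were not tested. A principal component analysis of these libraries separated the groups on its first axis (28.9% of the variance), with controls from -22.5 to -4.12 and shRNA A from 4.57 to 23.1. Particular libraries stood apart in sets of genes. Control replicate 3 carried choroid plexus transcripts, with Ttr, the thyroid hormone carrier transthyretin, at 935 CPM there and no higher than 16.2 CPM elsewhere. Control replicate 1 was low in myelin transcripts. Among the shRNA A libraries, replicate 3 was the only one whose interferon-induced genes lay at the control level, and more genes lay outside the range of the controls in it (30.7% above and 28.8% below) than in replicate 1 (24.4% and 22.8%). Results that rest on these libraries are given with and without them.

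Few genes passed the threshold. At an adjusted p under 0.05, edgeR called 4 genes higher (0.0243% of the genes tested) and 0 lower (0%) with shRNA A. At an unadjusted p under 0.05 there were 578 higher (3.52%) and 557 lower (3.39%), and the shRNA A values lay entirely above the controls in 1125 genes (6.84%) and entirely below in 928 (5.65%). Both conditions held for 465 higher (2.83%) and 412 lower genes (2.51%). Of these, 102 higher and 90 lower genes differed at least 1.5-fold, 32 and 29 at least 2-fold, and 6 and 1 at least 4-fold. Above a mean of 100 CPM, genes meeting both conditions were more often lower than higher, 76 against 38 of 2257, and between 1 and 100 CPM they were more often higher. Over all genes 50.1% of log2 fold changes were positive and 49.9% negative, and their median was 0.0.

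**Figure D1:**
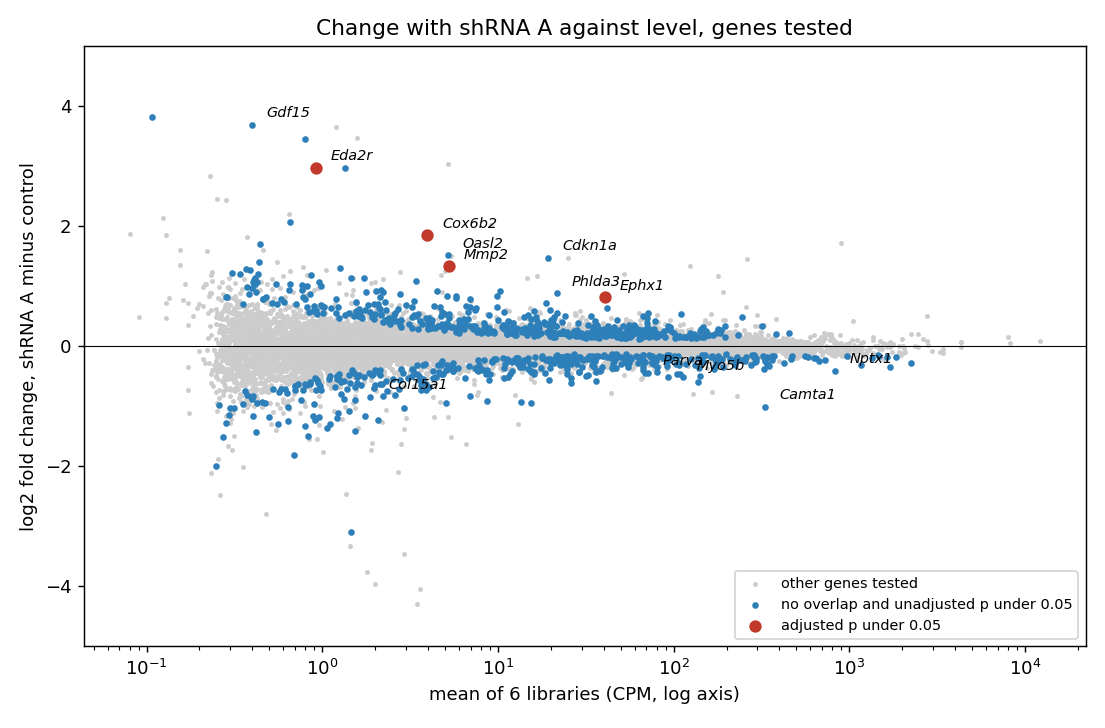
Log2 fold change with shRNA A minus control (vertical axis) against the mean level of the 6 libraries in CPM (horizontal log axis), one point per gene tested, with 1 gene outside the range of -5 to 5 not drawn. Blue points are the 465 higher and 412 lower genes whose groups do not overlap and whose unadjusted p is under 0.05, and red points are the 4 genes called, all of them higher.

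The number of calls depended on the tool and on single libraries. DESeq2 called 43 genes (0.262%), 19 of them higher (0.116%) and 24 lower (0.146%), and edgeR on the 6 libraries alone called 15 higher (0.0927%) and 3 lower (0.0185%) of 16188 genes. No gene passed with limma-voom (0 called), where 1111 had an unadjusted p under 0.05. In edgeR on all libraries there were 0 calls without control replicate 1, shRNA A replicate 1, replicate 2 or replicate 3, where 795, 1216, 939 and 901 genes had an unadjusted p under 0.05, beside 1135 with all libraries. Leaving out control replicate 2 left 1 call, and leaving out control replicate 3 gave 8, of which 6 were lower. Without shRNA B replicate 2 there were 10. DESeq2 and edgeR on the 6 libraries shared 12 genes. These were Ephx1, Mmp2, Cox6b2, Eda2r, Cdkn1a, Gdf15, Phlda3, Dcxr and B2m, all higher, and Parva, Nos1 and Camta1, all lower.

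The 4 genes called in the main test were raised in every shRNA A library. Ephx1 encodes microsomal epoxide hydrolase, an enzyme of xenobiotic metabolism. Its level was 25.2, 31.4 and 32.0 CPM in the controls and 51.9, 53.1 and 51.4 CPM with shRNA A. The shRNA A libraries differed little among themselves (52.1 ± 0.888 CPM, SD, n = 3) and all exceeded the highest control. The gene rose 1.76-fold (log2 fold change 0.82 ± 0.10 SE, edgeR adjusted p = 0.0386), and 12 of the 18 alternative analyses called it. Mmp2, the secreted protease gelatinase A, stood at 2.81, 3.12 and 3.02 CPM in the controls and at 7.06, 8.94 and 6.51 CPM with shRNA A. The groups were far apart compared with their spread, and Mmp2 rose 2.51-fold (1.33 ± 0.18, adjusted p = 0.039). Of the other 24 matrix-remodelling genes tested, 2 more were higher and 1 was lower at an unadjusted p under 0.05 (3.52% and 3.39% over all genes), and the list's median was 0.01.

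Cox6b2, the testis form of subunit 6B of cytochrome c oxidase, the last enzyme of the respiratory chain, stood at 1.19, 1.72 and 2.24 CPM in the controls. With shRNA A it stood at 5.75, 7.24 and 5.70 CPM, a rise of 3.62-fold (log2 fold change 1.85 ± 0.24, edgeR adjusted p = 0.039). Its widely expressed counterpart Cox6b1 stood at 118 to 130 CPM in the controls and 118 to 128 CPM with shRNA A, so that these groups overlapped. Of the 15 cytochrome c oxidase subunit genes tested, 13 were positive and the median was 0.07. At an unadjusted p under 0.05, 3 were higher (Cox6b2, Cox7a1 and Cox5b) and 0 lower, beside 3.52% and 3.39% over all genes. The other members tested did not reach that threshold. Eda2r encodes a receptor of the tumour necrosis factor receptor family that p53 is known to induce. It had 0.0678, 0.382 and 0.157 CPM in the controls, of which the first was under the 3-read level, and 1.98, 1.48 and 1.44 CPM with shRNA A. The gene was thus scarce in the controls and present in every shRNA A library, and it rose 7.86-fold (2.97 ± 0.41, adjusted p = 0.039). The log2 fold change was 3.79 without control replicate 2, the highest control, and 2.59 without control replicate 1.

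**Figure D2:**
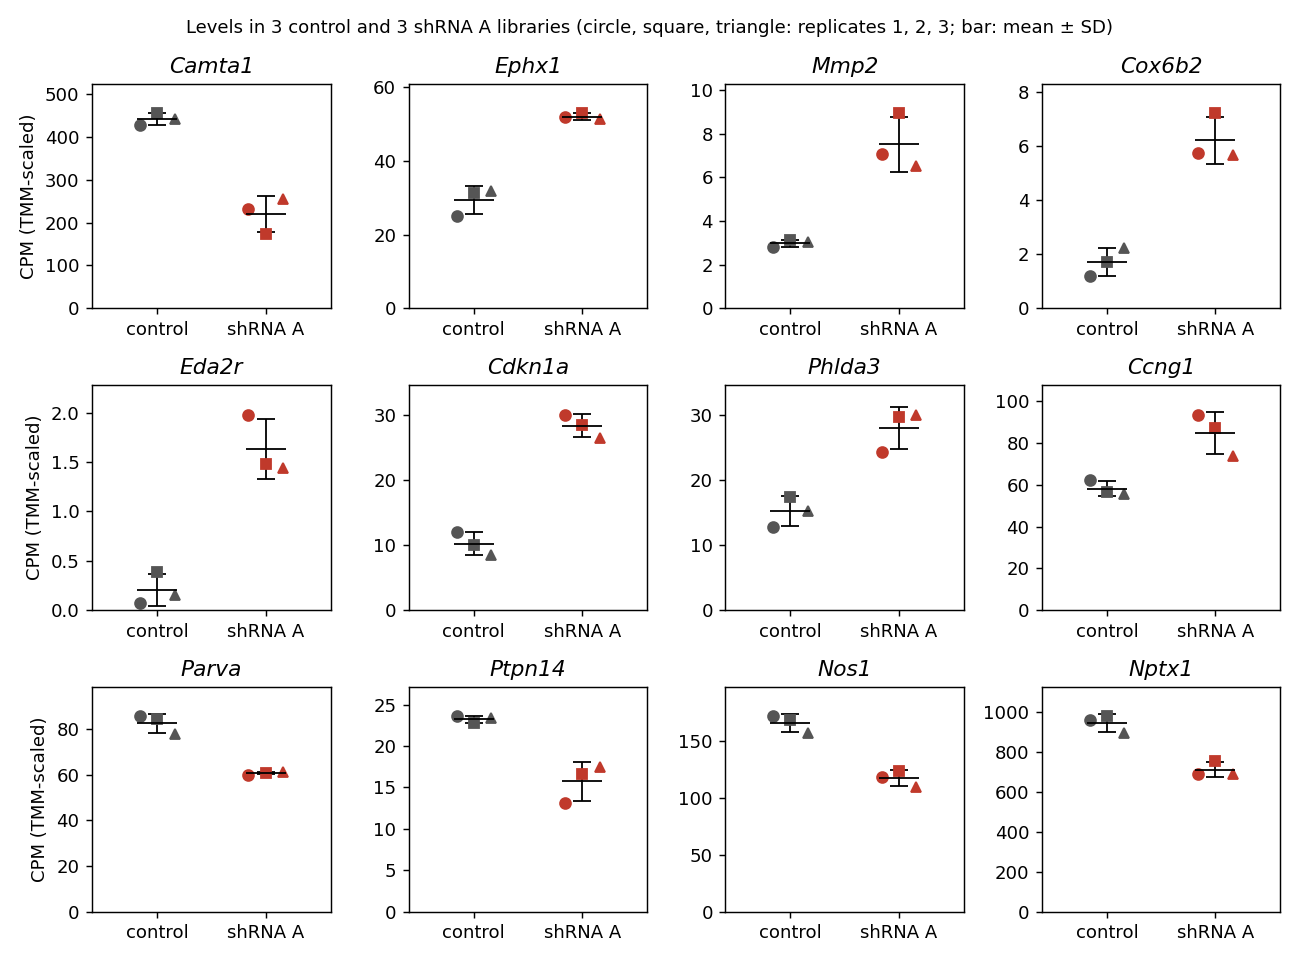
Levels in CPM (linear axes from 0) of 12 genes in the 3 control (grey) and 3 shRNA A (red) libraries, with circles, squares and triangles for replicates 1, 2 and 3 and bars for mean ± SD. The groups do not overlap in any panel: Camta1, Parva, Ptpn14, Nos1 and Nptx1 are lower with shRNA A and the other 7 genes higher, of which Ephx1, Mmp2, Cox6b2 and Eda2r passed the adjusted threshold.

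Eda2r is one of a set of p53 target genes that stood high with shRNA A. The transcription factor p53 responds to DNA damage and other stress, and its targets include inhibitors of the cell cycle, regulators of p53 itself and genes of cell death. Of the 34 members of the p53 target and cell death list that were tested, 11 were higher and 0 lower at an unadjusted p under 0.05, where 3.52% and 3.39% of all genes were. The members of this and the other lists were chosen with earlier results of these data known. Setting such a count beside the share over all genes is therefore no independent test. The shRNA A values lay above all controls in 12 members and below in 1 (6.84% and 5.65% over all genes). The median over the list was only 0.08, beside 0.0 over all genes, and 10 of the 34 members leaned lower. The list score, the mean over members of log2(CPM + 0.5) minus the control mean, reached 0.32, 0.29 and 0.25 in the respective shRNA A libraries, whereas no control exceeded 0.01. When any single library was left out, the number of members higher at an unadjusted p under 0.05 was 10 to 13.

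Cdkn1a, the cyclin-dependent kinase inhibitor p21, stood at 12.01, 10.1 and 8.53 CPM in the controls and at 30.03, 28.5 and 26.4 CPM with shRNA A. The lowest shRNA A value lay far above the highest control, and the log2 fold change was 1.48 ± 0.20. Its edgeR adjusted p was 0.0755, and over the 18 alternatives it ranged from 5.48e-13 to 0.39. Phlda3, an inhibitor of Akt signalling, stood at 12.8, 17.5 and 15.2 CPM in the controls and at 24.4, 29.7 and 30.1 CPM with shRNA A, a log2 fold change of 0.88 (adjusted p = 0.126). Ccng1, cyclin G1, stood at 62.1, 56.5 and 55.4 CPM and at 93.6, 87.3 and 73.8 CPM (0.55, adjusted p = 0.269). In all 3 genes the groups were separate.

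Aen, a nuclease of apoptosis, was at 15.7 to 16.5 CPM in the controls and 19.2 to 21.9 CPM with shRNA A (log2 fold change 0.37). Dcxr, a carbonyl reductase, was at 6.82 to 7.35 CPM and at 11.7 to 13.2 CPM (0.84), and DESeq2 called it with an adjusted p of 0.00733. Gdf15, a secreted stress cytokine outside the list that p53 is known to induce, had 0.034, 0.0637 and 0.063 CPM in the controls, under the 3-read level. It had 0.895, 0.45 and 0.884 CPM with shRNA A, a fitted log2 fold change of 3.69 that is no bound at such control levels, and was called by DESeq2 (adjusted p = 0.00438) and by edgeR on the 6 libraries (0.0181), but not in the main test (0.126).

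Other well-known p53 targets, chosen after their values were seen, overlapped between the groups. Mdm2, the ubiquitin ligase that limits p53, stood at 54.6 to 58.5 CPM in the controls and 51.8 to 60.2 CPM with shRNA A. Trp53 itself stood at 15.2 to 19.4 CPM and 18.1 to 19.3 CPM. Bax, an effector of apoptosis, was at 41.2 to 42.8 CPM and 41.0 to 48.0 CPM, and Bbc3 and Gadd45a had log2 fold changes of -0.04 each. With shRNA B, whose comparison shares the control libraries, 11 members of the list were higher at the adjusted threshold (0.779% over all genes). Among them were Eda2r, Cdkn1a, Phlda3, Ccng1, Aen and Dcxr.

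The promoters of the list were searched for the element that p53 binds. Its members were listed as p53 target or cell death genes, so a high share follows from that choice and is no result about shRNA A. From 250 bases before to 50 bases after the start site in RefSeq (build GRCm38.p6), the decamer of the p53 response element, searched on both strands, was found in 14 of 26 members with a promoter entry (53.8%) and in 8.39% of 10957 promoters of all genes tested. Among the 309 promoters of genes higher with shRNA A (no overlap, unadjusted p under 0.05) it was found in 8.74%, close to the share over all genes. A match is a description of the letters and not a bound site. Stretches of the Cdkn1a promoter at chr17:29090876-29090967 (plus strand) and of the Ccng1 promoter at chr11:40755432-40755501 (minus strand) are shown 5′ to 3′ in the direction of the gene, upstream of the start site, with the p53 decamers in capitals.
Cdkn1a: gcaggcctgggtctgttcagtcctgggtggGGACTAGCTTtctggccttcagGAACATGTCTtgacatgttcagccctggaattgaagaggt
Ccng1: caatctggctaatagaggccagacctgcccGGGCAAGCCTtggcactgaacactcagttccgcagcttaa

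The 15 higher genes of smallest p (separate groups, mean 1 CPM or more) also hold Aldh1a1, Lonrf1, Pmp22, Snx25, Cort, Tmem52, Nfe2l2 and Stard10, none of which passed the adjusted threshold in the main test. Aldh1a1, a retinaldehyde dehydrogenase, stood at 66.2, 66.2 and 68.5 CPM in the controls and at 96.8, 85.0 and 86.2 CPM with shRNA A (log2 fold change 0.42 ± 0.07, edgeR adjusted p = 0.168). Nfe2l2, which encodes the oxidative-stress regulator NRF2, stood at 15.7, 15.3 and 16.3 CPM and at 21.1, 22.8 and 18.6 CPM (0.40, adjusted p = 0.333). Both had narrow control groups. Of the 27 NRF2 and xenobiotic genes tested, 2 (Ephx1 and Nfe2l2) were higher and 1 (Slc7a11, the cystine transporter) was lower at an unadjusted p under 0.05, and the list's median was 0.04. Over all genes 3.52% were higher and 3.39% lower, so these counts are near the background. Stard10, a lipid transfer protein, was at 19.1 to 20.7 CPM and 24.0 to 33.1 CPM, and Pmp22, a peripheral myelin protein, at 14.5 to 14.96 CPM and 17.4 to 20.1 CPM. Snx25 shares exon sequence with a neighbouring gene, and libraries without strand cannot assign such reads.

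Among the largest differences, 1 library could decide the value. Oasl2, an interferon-induced gene, was at 2.65 to 2.74 CPM in the controls and at 11.8, 8.14 and 3.14 CPM with shRNA A. Gm26035, a small RNA gene, stood at 0.511, 0.418 and 6.28 CPM with shRNA A, so its log2 fold change of 2.97 was 0.61 without replicate 3. St14, the membrane protease matriptase, was even across libraries, at 0.644 to 0.859 CPM in the controls and 1.41 to 2.01 CPM with shRNA A (1.30, edgeR adjusted p = 0.388).

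The lower genes of smallest p included Parva, Col15a1, Ptpn14 and Tjp3. None passed the adjusted threshold in the main test. Parva, the focal adhesion protein alpha-parvin, stood at 85.6, 84.2 and 77.7 CPM in the controls and at 60.04, 60.8 and 61.2 CPM with shRNA A. The shRNA A libraries were almost equal and lay far below every control (log2 fold change -0.44 ± 0.07, edgeR adjusted p = 0.0647), and the adjusted p ranged from 9.81e-06 to 0.39 over the 18 alternatives, 5 of which called the gene. Col15a1, a collagen of basement membranes, was at 10.6, 8.12 and 7.90 CPM and at 4.25, 4.95 and 5.76 CPM (-0.83, adjusted p = 0.178). Ptpn14, a tyrosine phosphatase, was at 22.8 to 23.6 CPM and 13.1 to 17.5 CPM (-0.56). Tjp3, the tight junction protein ZO-3, was at 1.39 to 1.63 CPM and 0.447 to 0.72 CPM (-1.36). In each of these genes the highest shRNA A value lay below the lowest control.

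The other genes of smallest p in this direction were Gm12428 (a processed pseudogene), Myo5b, Sytl4, Tnfaip8l3, Nos1, Nptx1, Hpcal1, Pnma3, Grik4, Acvr1c and Slco2a1. Nos1, the calmodulin-dependent neuronal nitric oxide synthase, stood at 172, 169 and 157 CPM in the controls and at 118, 124 and 110 CPM with shRNA A (log2 fold change -0.50 ± 0.10, edgeR adjusted p = 0.291). DESeq2 and edgeR on the 6 libraries both called it. Nptx1, a secreted pentraxin that gathers glutamate receptors at synapses, stood at 958, 978 and 895 CPM and at 688, 755 and 689 CPM (-0.41, adjusted p = 0.309). Both genes were lower in each shRNA A library than in any control. Hpcal1, a neuronal calcium sensor, was at 33.1 to 44.0 CPM and 24.9 to 28.7 CPM, and Sytl4, which tethers secretory granules, at 1.86 to 3.19 CPM and 0.982 to 1.19 CPM. Cdkn1a, Nos1, Ptpn14, Acvr1c, Kcnd3 and Gpr17 overlap genes on the opposite strand by at least 100 exon bases, so part of their reads cannot be assigned with certainty. The genes with the largest lower values included Col8a1, at 6.90 CPM in control replicate 3 and 0.441 and 0.477 CPM in the other controls, against 0.257 to 0.327 CPM with shRNA A. Fibin, Figf, Glp2r and Trpc7 had log2 fold changes of -1.42, -1.30, -1.24 and -1.19, and in each the highest value was that of control replicate 1. Without that library the values were -0.93, -0.65, -0.54 and -0.75. Without control replicate 3 the log2 fold change of Col8a1 went from -3.10 to -0.61.

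Pan-neuronal and presynaptic genes had medians slightly below 0. Among 22 pan-neuronal markers 19 were negative, the median was -0.11, and 4 were lower and 0 higher at an unadjusted p under 0.05 (3.39% and 3.52% over all genes). When single libraries were left out, 1 (without shRNA A replicate 2) to 5 (without control replicate 3) were lower, with 2 in the absence of control replicate 2 or shRNA A replicate 1 or 3, and the median was -0.05 without control replicate 2. Their summed level was 23860 to 26630 CPM in the controls and 22960 to 24340 CPM with shRNA A. Those 4 were Celf4 (an RNA-binding protein), Stmn2 (a microtubule regulator of growing axons), Snhg11 and Snap25 (a core protein of vesicle fusion). Celf4 stood at 384, 369 and 325 CPM in the controls and at 297, 305 and 308 CPM with shRNA A, without overlap. Of 34 presynaptic release genes, 7 were lower and 0 higher at that threshold, and the values of 9 lay below all controls and of 2 above (5.65% and 6.84% over all genes). The number lower at that threshold was 2 without control replicate 2, 3 without shRNA A replicate 1 or 2, 4 without shRNA A replicate 3 and 8 without control replicate 3, and the median was -0.04 without control replicate 2. Cplx2, the fusion clamp complexin 2, stood at 2472, 2475 and 2460 CPM in the controls and at 1968, 2063 and 2092 CPM with shRNA A. Its controls were nearly identical, and DESeq2 called it (log2 fold change -0.27, adjusted p = 0.0216) while the main edgeR test did not (0.466). Syn2 and Rims1, proteins of the vesicle pool and active zone, were lower with separate groups too (-0.34 and -0.22). None of these list members passed the adjusted edgeR threshold.

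Of 19 markers of CA2 and CA3 pyramidal cells, 16 were negative, and the median was -0.21. At an unadjusted p under 0.05, 5 were lower (3.39% over all genes). The positive members were Amigo2, Cacng5 and Avpr1b, at 1.24, 1.16 and 1.8 times the control, so the list was not low throughout. The number lower was 3 without shRNA A replicate 3 and 8 without control replicate 3, and the median was -0.12 without control replicate 2. The lower ones include Nptx1 and Grik4, a kainate receptor subunit. Grik4 stood at 80.4, 87.2 and 71.0 CPM in the controls and at 55.7, 58.4 and 61.3 CPM with shRNA A (-0.44 ± 0.10, edgeR adjusted p = 0.33). The summed level of the list was 1638 to 1927 CPM in the controls and 1382 to 1457 CPM with shRNA A, without overlap. Nptx1 alone had a mean of 944 CPM in the controls and 711 CPM with shRNA A, a large part of that sum. The list scores lay closer together, at -0.10 to 0.14 in the controls and -0.18 to -0.12 with shRNA A. CA1 markers leaned the other way, with 11 of 13 positive and a median of 0.13, and dentate granule cell markers had 15 of 19 negative and a median of -0.18 with overlapping groups in all but 1 gene. Without control replicate 2 the CA1 median was 0.26, and without control replicate 3 the dentate median was -0.05. Whether the dissected pieces differed in the share of each field was not tested.

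Interneuron markers had no common direction, with 11 positive and 15 negative. At an unadjusted p under 0.05, 2 were higher and 3 lower (3.52% and 3.39% over all genes). The values of 5 lay above all controls and of 2 below (6.84% and 5.65% over all genes). The 2 higher ones were neuropeptide-related genes with separate groups. Cort, cortistatin, stood at 2.41, 2.32 and 2.17 CPM in the controls and at 3.29, 3.86 and 3.93 CPM with shRNA A (log2 fold change 0.68). Crhbp, which binds corticotropin-releasing hormone, stood at 11.97, 13.8 and 12.7 CPM and at 21.8, 19.4 and 16.9 CPM (0.59). The lower ones were Nos1, given above, Calb2 and Cnr1. Calb2 stood at 0.409 times the control, and its log2 fold change was -1.64 to -0.46 when single libraries were left out. Cnr1, the cannabinoid receptor, was at 167 to 209 CPM and 151 to 158 CPM (-0.33). The edgeR adjusted p values of Cort, Crhbp and Cnr1 were 0.33, 0.466 and 0.434.

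Channel and receptor lists moved little, with medians of -0.00 for 29 glutamate receptor genes, -0.01 for 17 GABA receptor genes, 0.01 for 39 potassium and HCN channel genes and -0.00 for 24 calcium and sodium channel genes. The median was -0.02 for 27 serotonin, dopamine, adrenergic and muscarinic receptor genes. Single members stood out in these lists. Kcnd3, the A-type potassium channel Kv4.3, was at 84.4 to 106 CPM in the controls and 65.6 to 71.2 CPM with shRNA A, and DESeq2 called it (log2 fold change -0.43, adjusted p = 0.032). Htr2c, a serotonin receptor that choroid plexus also expresses, was at 21.6, 13.5 and 17.9 CPM and at 9.39, 8.11 and 10.3 CPM (-0.93), called by DESeq2 (0.008) and not by the main edgeR test (0.425). The part of choroid tissue in the value of Htr2c was not tested. Of 35 calmodulin and calcium-dependent signalling genes, 1 was higher and 3 were lower at an unadjusted p under 0.05, with a median of -0.01, beside 3.52% higher and 3.39% lower over all genes, so 1 higher gene is near the background. The number lower was 1 to 4 when single libraries were left out, 1 without control replicate 3, shRNA A replicates 2 or 3 or shRNA B replicate 1. The lower ones were Nos1, the kinase gene Camkk1 and the phosphodiesterase gene Pde1b, and the higher one was Rcan1, an inhibitor of calcineurin.

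Interferon-induced genes were higher in shRNA A replicates 1 and 2 and at the control level in replicate 3. Interferons are cytokines of antiviral defence, and the genes they induce include viral RNA sensors, nucleases and components of antigen presentation. Of 50 such genes tested, 48 were positive and the median was 0.56. At an unadjusted p under 0.05, 12 were higher and 0 lower (3.52% and 3.39% over all genes), and 0 passed the adjusted threshold in edgeR. In replicates 1 and 2, 47 and 48 of the 50 genes lay above all 3 controls, whereas 16 (32.0%) did in replicate 3. Over all genes the shares were 24.4%, 25% and 30.7%, so the share in replicate 3 is near the background. The list scores were 0.54, 0.68 and 0.03, beside -0.06 to 0.06 in the controls. The number higher at an unadjusted p under 0.05 was 2 to 4 when a control or shRNA A replicate 1 was left out. It was 20, 26 and 10 without shRNA B replicates 1, 2 and 3, libraries outside the comparison, and 24 of 46 with the 6 libraries alone. Without shRNA A replicate 3 the median was 0.75 and 23 members had an unadjusted p under 0.05. Without shRNA A replicate 2 the median was 0.37 with 0 higher and 1 lower at that threshold.

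Single members showed the same division. Ifit3, an antiviral protein with tetratricopeptide repeats, stood at 2.58, 2.90 and 3.94 CPM in the controls and at 6.10, 7.30 and 4.32 CPM with shRNA A (log2 fold change 0.91, edgeR adjusted p = 0.702). Oasl1 stood at 0.0637 to 0.102 CPM in the controls and at 0.479, 0.869 and 0.0982 CPM with shRNA A. The groups were separate in Ifit3, with replicate 3 close to the controls, and they overlapped in Oasl1. Ifit, Oas and Gbp genes are families of similar sequence, so reads may be split between members.

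Antigen presentation genes scored above the controls in each shRNA A library, by 0.31, 0.55 and 0.11. Of 19 tested, 18 were positive with a median of 0.53, and 8 lay above all controls (6.84% over all genes). B2m, the light chain of class I MHC molecules, stood at 51.2, 58.6 and 56.1 CPM in the controls and at 85.6, 77.0 and 73.0 CPM with shRNA A. All shRNA A libraries, replicate 3 included, exceeded the controls (log2 fold change 0.51 ± 0.12, edgeR adjusted p = 0.414), and DESeq2 called the gene with an adjusted p of 0.0321. H2-D1, a class I heavy chain, stood at 30.4, 35.2 and 32.4 CPM and at 53.6, 51.4 and 46.7 CPM (0.63). Without shRNA A replicate 2 the median of the list was 0.22. At an unadjusted p under 0.05 there were 2 members higher (3.52% over all genes), and 7 or 8 without shRNA A replicate 3 or shRNA B replicate 1 or 2.

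Beside these genes, microglia markers leaned higher, 24 of 25 positive with a median of 0.15 and 7 at an unadjusted p under 0.05 (3.52% over all genes), and their summed level was 822 to 866 CPM in the controls and 867 to 981 CPM with shRNA A. In shRNA A replicates 1, 2 and 3, 24, 7 and 19 of the markers lay above all controls (96%, 28% and 76%). Over all genes the shares were 24.4%, 25% and 30.7%, so the share in replicate 2 is near the background. The list scores were 0.23, 0.05 and 0.16, beside -0.03 to 0.03 in the controls. Replicate 2 had the summed level of 867 CPM, next to the highest control, so the lean rests mainly on replicates 1 and 3. Without replicate 1 the median was 0.09 and 2 markers had an unadjusted p under 0.05. Without control replicate 1 or 3 there were 4. C1qc, a chain of complement C1q, stood at 46.9, 50.2 and 49.1 CPM and at 59.9, 58.4 and 61.7 CPM (log2 fold change 0.30, edgeR adjusted p = 0.425), separate and even. Transcripts of the T, B and NK cell markers in the list were rare in both groups. The 17 markers together had 67 to 95 counts per control library and 69 to 99 per shRNA A library. In all 3 libraries of the group 4 and 2 of them were at 0, and only 2 markers could be tested. Ighm, an immunoglobulin constant region gene outside the list, stood at 5.77, 8.05 and 9.23 CPM in the controls. With shRNA A it stood at 11.25, 13.99 and 10.9 CPM (log2 fold change 0.65). DESeq2 called it (adjusted p = 0.0423), and the main edgeR test did not (0.388). Reactive astrocyte genes had a median of 0.02, and Gfap overlapped between the groups. The part of microglia in the interferon and antigen presentation values was not tested.

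Promoters of interferon-induced genes often hold the core of an interferon-stimulated response element, searched here as GAAA, any 2 bases and GAAA again. It was found on either strand in 18 of 36 promoters of the list (50.0%) and in 3.68% of the promoters of all genes tested. The list was made of interferon-induced genes, so its share follows from that choice and is no result about shRNA A. Among promoters of genes higher and lower with shRNA A the shares were 5.5% and 4.98%. The stretches below lie upstream of the start sites of Ifit3 at chr19:34583343-34583446 (plus strand) and B2m at chr2:122147518-122147587 (plus strand), with the core or its reverse complement in capitals.
Ifit3: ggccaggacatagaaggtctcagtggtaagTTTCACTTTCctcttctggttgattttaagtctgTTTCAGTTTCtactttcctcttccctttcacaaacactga
B2m: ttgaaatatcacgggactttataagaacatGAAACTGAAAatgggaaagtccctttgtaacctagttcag

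**Figure D3:**
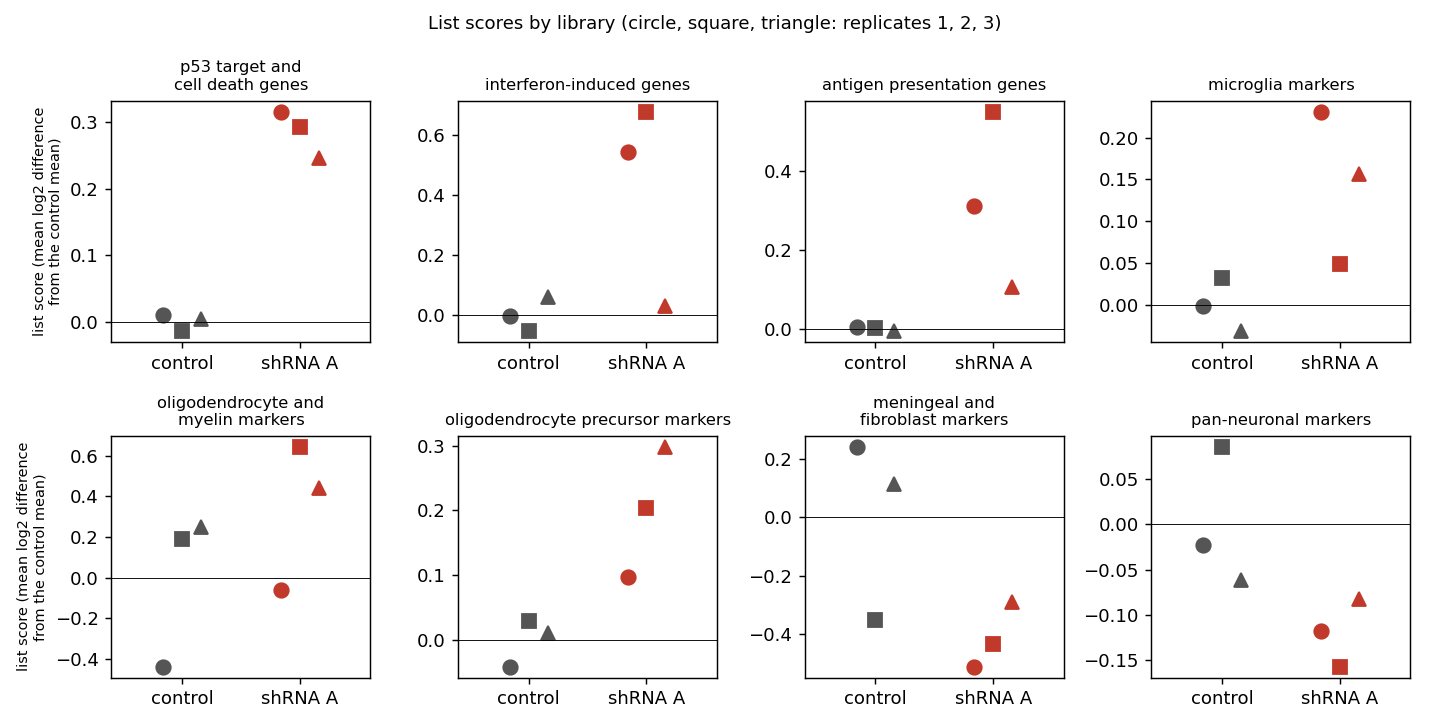
Scores of 8 gene lists in each library, the mean over list members of log2(CPM + 0.5) minus the control mean (vertical axes differ between panels), with circles, squares and triangles for replicates 1, 2 and 3 of the control (grey) and shRNA A (red) groups. The p53 list is at 0.25 to 0.32 in all 3 shRNA A libraries, whereas the interferon list is at 0.54 and 0.68 in replicates 1 and 2 and at 0.03 in replicate 3.

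Myelin transcripts varied more between animals than between groups. Of 24 oligodendrocyte and myelin markers, 23 were positive with a median of 0.37, but 0 had an unadjusted p under 0.05 in edgeR and 0 had separate groups. Mog, a surface protein of the myelin sheath, stood at 34.7, 52.3 and 51.0 CPM in the controls and at 47.9, 71.6 and 65.9 CPM with shRNA A. Control replicate 1 was the lowest and shRNA A replicate 1 lay among the controls, with list scores of -0.44 and -0.06. Without control replicate 1 the median was 0.22, and without shRNA A replicate 1 it was 0.58 with 5 members at an unadjusted p under 0.05. Oligodendrocyte precursor markers had 14 of 17 positive, a median of 0.23 and 5 higher at that threshold (3.52% over all genes). Without shRNA A replicate 2 or 3 there were 2 higher, and the median was 0.25 and 0.12. Gpr17, a receptor of differentiating precursors, stood at 65.1, 66.1 and 60.1 CPM and at 77.4, 78.0 and 78.8 CPM (0.29, edgeR adjusted p = 0.506). Olig1, Olig2, Enpp6 and Vcan, also higher at that threshold, stood at 1.32, 1.3, 1.35 and 1.24 times the control. Pdgfra, Cspg4, Pcdh15 and Tnr stood at 1.09, 1.01, 0.99 and 0.986 times, so the list was not high throughout.

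Markers of tissue that borders the hippocampus were lower with shRNA A. Of 18 meningeal and fibroblast markers 17 were negative with a median of -0.46, and 8 were lower at an unadjusted p under 0.05 (3.39% over all genes). That number was 4 without replicate 1 of either group or shRNA A replicate 2, and 12 without control replicate 2. Col1a2, a chain of type I collagen, stood at 12.8, 8.82 and 10.4 CPM in the controls and at 6.42, 6.43 and 8.64 CPM with shRNA A (-0.57). The summed level was 232 to 380 CPM in the controls and 224 to 296 CPM with shRNA A, an overlapping range, and 0 of the markers tested had a library without reads. These markers moved in the same direction as Col15a1, Slco2a1 and Fibin, and their part in those values was not tested. Of 16 choroid plexus and ependyma markers 15 were negative with a median of -0.96, which rested on control replicate 3. Without it the median was -0.43 and 6 were positive. Their summed level was 161 and 215 CPM in control replicates 1 and 2, 1735 CPM in control replicate 3 and 210 to 244 CPM with shRNA A.

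Of the lists not yet described, activity-regulated genes had 21 of 28 positive, a median of 0.15 and 4 higher at an unadjusted p under 0.05 (3.52% over all genes). Without control replicate 2 the median was 0.32 and 14 were higher, without control replicate 3 the median was 0.10 and 0 were higher, and without replicate 1 of either group the number was 1. It was 2 without shRNA A replicate 3 or shRNA B replicate 1 or 3. Their score was lowest in control replicate 1 and highest in control replicate 2, so the shRNA A libraries lay within the range of the controls. Circadian clock genes had a median of 0.11 (0.03 without control replicate 2) with 3 of 21 higher (3.52% over all genes). The number was 1 without control replicate 1, 2 without control replicate 2 or shRNA A replicate 3, and 5 without shRNA A replicate 1. Among the 3 were Bhlhe40 and Per2, both transcriptional repressors of the clock. Sterol synthesis and uptake genes had 20 of 25 negative, a median of -0.12, 2 lower and 1 higher (3.39% and 3.52% over all genes). Without control replicate 2 the median was -0.05 and 0 were lower, without control replicate 3 it was -0.18 with 7 lower, and without shRNA A replicate 1 it was -0.06 with 0 lower. The 18 genes of microRNA and hairpin processing, the machinery that a hairpin uses, had 15 negative and a median of -0.05. Of them 1 was lower (3.39% over all genes), the nuclear transport gene Ran. Astrocyte, endothelial, brain matrix and immature neuron lists had medians between -0.06 and 0.05.

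**Figure D4:**
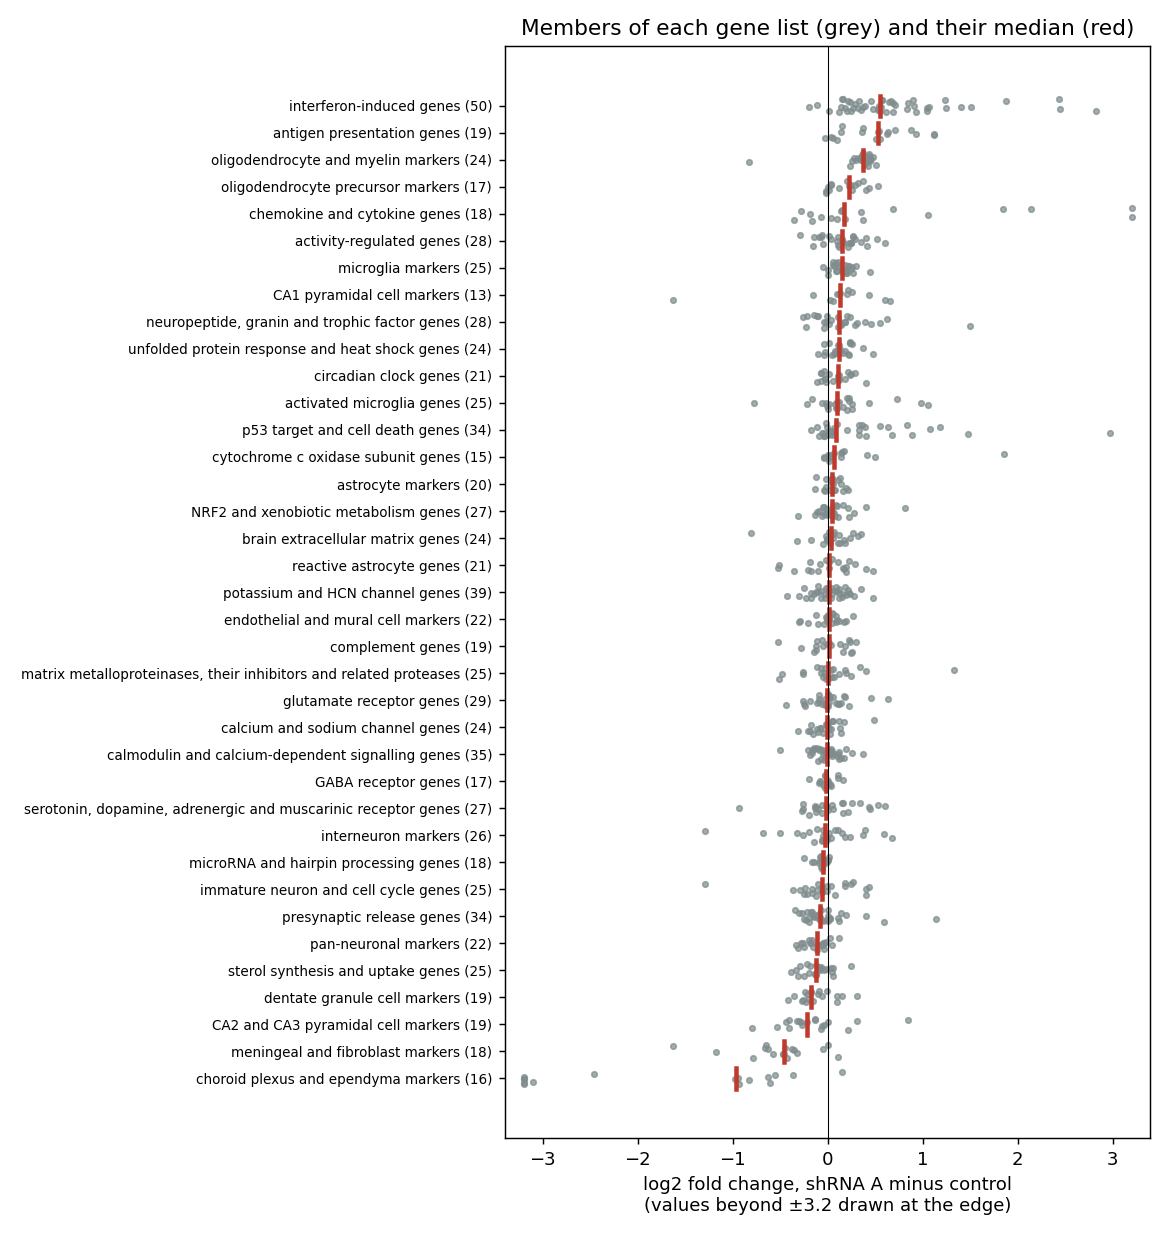
Log2 fold changes (shRNA A minus control, horizontal axis) of the members of the gene lists with at least 10 members tested (number in brackets), with a grey point per gene and a red bar at the median. Lists are ordered by their median, from interferon-induced genes at 0.56 to choroid plexus and ependyma markers at -0.96, and most medians lie close to 0.

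The hairpins were set against each other to see which values are particular to shRNA A. Both comparisons use the same controls, so likeness between them is not independent. In the direct test of shRNA B minus shRNA A, edgeR called 0 of 16438 genes (0%) at an adjusted p under 0.05, with 1536 (9.34%) at an unadjusted p under 0.05, and DESeq2 called 123. Camta1 had log2 fold changes of -1.01 with shRNA A and -1.03 with shRNA B, and the 4 genes called for shRNA A had 0.82 and 0.97 (Ephx1), 1.33 and 1.02 (Mmp2), 1.85 and 1.47 (Cox6b2) and 2.97 and 3.31 (Eda2r). The difference had an unadjusted p between 0.0952 and 0.285 for these 4. Against the controls shRNA B had 128 genes called higher (0.779%) and 39 lower (0.237%) by the same test.

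Some of the genes of smallest p were near the controls with shRNA B. Lonrf1 was at 32.1 to 32.9 CPM in the controls, 39.5 to 40.2 CPM with shRNA A and 32.5 to 35.9 CPM with shRNA B, and shRNA B minus shRNA A was -0.24 (edgeR unadjusted p = 0.00196, adjusted 0.238). Snx25 was at 57.0 to 60.8 CPM with shRNA B (-0.20, 0.00902, 0.342), and Cort at 2.20 to 2.73 CPM (-0.58, 0.00156, 0.231). Grik4 was at 63.4 to 81.1 CPM with shRNA B (0.32, 0.00587, 0.325). Crhbp, from the interneuron list, had log2 fold changes of 0.59 with shRNA A and -0.41 with shRNA B (edgeR test of the difference, unadjusted p = 5.53e-05, adjusted 0.0905). None of these differences passed the adjusted threshold, so none is shown to be particular to shRNA A. The interferon list had a median of 1.56 with shRNA B, whose 3 libraries had scores of 0.94, 1.90 and 1.27, all above those of shRNA A.

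The CGCG core, the sequence bound by the CG-1 domain of plant relatives, was about as common in promoters of genes that differed with shRNA A as in all promoters. It was present in 72.1% of 10957 promoters of genes tested, in 70.2% of 309 promoters of higher genes and in 69.8% of 281 promoters of lower genes (no overlap, unadjusted p under 0.05). The longer CGCGT, searched on both strands and contained in the matches of CGCG, was in 39.1%, 35.6% and 36.3%. Stretches upstream of the start sites of Cox6b2 at chr7:4753154-4753229 (minus strand) and Camta1 at chr4:151861769-151861858 (minus strand) show such cores in capitals, in a gene that rose and in the gene the hairpin targets.
Cox6b2: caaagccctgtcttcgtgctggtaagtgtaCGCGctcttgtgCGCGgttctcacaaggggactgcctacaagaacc
Camta1: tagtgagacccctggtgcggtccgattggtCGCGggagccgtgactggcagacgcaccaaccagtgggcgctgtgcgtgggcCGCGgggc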

How the data were processed

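Per the file headers, the authors deposited raw read counts as whole numbers for each Ensembl gene. Their tools, per the submitters' processing notes, were HTSeq 0.6.1, TopHat 1.4.1, DESeq2 1.4.5, SAMtools 0.1.19 and R 3.1.1, with build mm9. No source used here gives the settings or the gene annotation. The authors' deposited table further gives each gene's normalized mean (a signal), the log2 fold change per shRNA and its standard error, and a likelihood ratio score with p-value. Libraries were polyA-selected from 1.5 µg RNA and keep no strand, per the labels' protocols. Of the 31804 genes, 8730 had 0 counts throughout. Symbols came from the table (20478) or a reference list (6546), and 4780 genes kept the identifier alone. Chromosomes are those of the deposited table.

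Counts were analysed with edgeR 4.0.16 in R 4.3.3: filterByExpr by group, TMM, the robust quasi-likelihood test on all 9 libraries, shRNA A minus control, two-sided, Benjamini-Hochberg threshold 0.05. The SE is the log2 fold change divided by the square root of F. Alternatives were DESeq2 1.42.0, limma 3.58.1, other scaling and filters, no robust estimation, the 6 libraries alone, a replicate block and leaving out each library. Reads are not independent molecules, so the 3-read level covers counting error only. Libraries of a group differed by more than counting noise (chi-square per degree of freedom at least 8.37). Named genes were Camta1, Camta2, genes called, the 15 of smallest p and 6 of largest change in each direction (at least 1 CPM, no overlap), genes called by both DESeq2 and edgeR on the 6 libraries, and up to 6 of smallest p plus the highest member of each of 38 lists. The members and lists were chosen with earlier results of these data known. Exon overlaps of at least 100 bases were found for 39 of 165 genes checked, 13 with protein-coding genes. All per-sample columns matched a label (0 did not).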

Additional observations from a re-analysis of the deposited data

Results flagged for a closer look

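Grm3, a metabotropic glutamate receptor gene, and Scn1a, a sodium channel gene, lay on opposite sides of the controls with the 2 hairpins. All 3 shRNA A libraries were above all controls and all 3 shRNA B libraries below. Control levels of Grm3 were 65.7, 63.6 and 60.5 CPM. The shRNA A libraries had 67.2, 70.4 and 68.7 CPM, and the shRNA B libraries 59.0, 47.5 and 54.7 CPM. Its log2 difference, shRNA B minus shRNA A, was -0.3557 (edgeR adjusted p = 0.175). Scn1a stood at 112.8 to 116.1 CPM in the controls, at 117.2 to 123.3 CPM with shRNA A and at 96.1 to 112.7 CPM with shRNA B, and its difference was -0.1781 (adjusted p = 0.432). Neither difference passed the adjusted threshold. Against the controls, the log2 fold change with shRNA A was 0.12 ± 0.08 (SE) for Grm3 and 0.05 ± 0.07 for Scn1a. Of all 16438 genes tested 27 showed such opposite separation, and 2 of the 890 genes in the lists and named sets did.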

How the results depend on the processing

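The count of genes called with shRNA A, 4 in the main test, was 43 with DESeq2, 0 with limma-voom, 9 without a low-count filter, 2 without robust estimation and 18 with these 6 libraries alone, and 0 to 10 when any 1 library was left out. It was 4 with RLE factors, with library size alone and with a minimum of 1 CPM in 3 libraries. The count for shRNA B minus shRNA A, 0 in the main test, was 123 with DESeq2, 21 without a filter and 0 to 110 when any 1 library was left out, the highest without shRNA B replicate 3. Camta1 kept a log2 fold change of -1.125 to -0.864 in all 18 alternatives. It passed the threshold with DESeq2 (-1.007), with these 6 libraries alone (-1.011) and without shRNA B replicate 2 (-1.007). Camta2 ranged from -0.0774 to 0.1569 when any 1 library was left out, and reversed without control replicate 1. For the changed counts the cause was not tested.

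With the replicate number of the labels as a replicate block, 5 genes were called for shRNA A, of which 3 were among the 4, and 1 gene for shRNA B minus shRNA A. Camta1 had a log2 fold change of -1.04 with the block (adjusted p = 0.237). Same-numbered control and shRNA A libraries had correlations of deviations of 0.0411, -0.119 and -0.0343. Pairs of other numbers had -0.068 to 0.11. These few values cannot decide whether same-numbered libraries were handled together, and the labels give only the number.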
